A study of Mus musculus with 18 samples.

Results

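The miR-30 family is a set of microRNAs (miRNAs) that carry the same seed, the stretch near the 5′ end by which a miRNA pairs with its target mRNAs. Its 5 members on the array, mmu-miR-30a, mmu-miR-30b, mmu-miR-30c, mmu-miR-30d and mmu-miR-30e (below without the species prefix), were followed in mouse liver after repeated oral dosing with the mutagenic carcinogen benzo(a)pyrene (BaP). Members were taken by name, and the rule for membership uses no measured value. They made up 5 of the 576 miRNA names on the array, and they were read by 11 of its 1712 probes through 100 spots.

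All animals were male Muta™Mouse (transgenic strain 40.6, aged 25 weeks), a mouse that carries a bacterial reporter gene for scoring mutations. Control animals received the olive oil vehicle, and the other groups received 25, 50 or 75 mg/kg/day BaP in olive oil by gavage for 28 days. Liver was taken 3 days after the last dose, so that every value describes the tissue after a pause in dosing. Arrays were available for 3 controls and for 5 animals at each dose, 1 animal per array.

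A miRNA is cut from a hairpin precursor, and the arm that is loaded into the silencing complex is the guide strand, while the other arm (written with an asterisk in the array's naming) is mostly degraded. Loaded miR-30 lowers the stability and translation of mRNAs with matching sites. Known targets of the family include Snai1, a transcription factor that represses epithelial genes and is kept low in hepatocytes, and Becn1, a factor that starts autophagy. The family is broadly expressed in epithelial tissues and is known for a role in bile duct formation.

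Members that share a seed can be hard to separate by hybridization, so the sequences are shown first. Mature sequences from RefSeq (GRCm38.p6) are given for 3 of the 5 members and for miR-384-5p, a miRNA outside the family name with the same seed. The seed (bases 2 to 8) is in capitals.
miR-30a: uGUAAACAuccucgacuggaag
miR-30c: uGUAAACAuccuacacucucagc
miR-30e: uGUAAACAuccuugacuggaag
miR-384-5p: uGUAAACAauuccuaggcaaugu
Positions are counted from 1 at the 5′ end. miR-30a and miR-30e were identical at 21 of 22 positions, and the single substitution was C13U (the miR-30a base first). miR-30a and miR-30c matched at 17 of 22 positions and shared their first 12 bases. miR-384-5p shared only the first 8 bases with miR-30a, and matched it at 12 of 22 positions. The part of the miR-30a signal that came from miR-30e, or the reverse, was not tested.

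The mature miR-30a lay at chr1:23272274-23272295 on the plus strand. A copy of miR-30c (hairpin gene Mir30c-2) lay at chr1:23291714-23291736 on the same strand, and the pair of hairpins was separated by 19361 bases. The second hairpin gene for miR-30c (Mir30c-1, mature sequence at chr4:120769584-120769606) and Mir30e (chr4:120772660-120772681) lay on the minus strand of chromosome 4, 2983 bases apart, within the span of the protein-coding gene Nfyc. Both miR-30c hairpins give the same mature sequence, so the array cannot tell them apart.

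Some arrays stood apart before any dose was compared. The number of miRNA names that the scanner software called detected ran from 57 to 144 per array, with a median of 94. The highest count was on 25 mg/kg/day replicate 1, and the lowest counts were on 25 mg/kg/day replicate 4 (57), 25 mg/kg/day replicate 5 (70) and 50 mg/kg/day replicate 1 (80). The arrays came on 3 slides. Slide 1 held 1 control and 2 arrays of each dose, slide 2 carried none of the controls and no animal of the lowest dose but 2 of each higher dose, and slide 3 held 2 controls, 3 arrays at 25 and 1 at each higher dose. The hepatocyte miRNA miR-122 was present on all 18 arrays, and the 4 neural miRNAs listed as markers were present on none. No 2 arrays held the same values.

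Detection split the family into miR-30a and the rest. A probe was called present on an array when at least 0.5 of its spots were well above background by the scanner's own flag, and it entered the tests when it was present on at least 0.8 of the arrays of any group. By this rule 69 of 576 names were kept, and miR-30a was the only member among them. All 3 miR-30a probes were kept. One was present on 18 of 18 arrays, with a signal 1.72 to 8.42 times the median of the array's negative-control spots (median 4.19). Another was present on 17 arrays, with a median of 1.82 times the negative-control median. The last was present on 10 arrays, with a median of only 1.19 (0.95 to 1.77). It was present in 2 of 3 controls and in 2, 4 and 2 of 5 animals at 25, 50 and 75 mg/kg/day. This dim probe was therefore kept through the 50 mg/kg/day group alone, and it has equal weight in the miR-30a mean.

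None of the 8 probes for the other 4 members was kept. miR-30b was present on 1 array, 25 mg/kg/day replicate 1, by 1 of its 2 probes. miR-30c was present on 3 arrays by 1 of 2 probes (control replicate 1 and 25 mg/kg/day replicates 1 and 2). Both miR-30d probes were present on the same 5 arrays, all on slide 1. One miR-30e probe was present on 7 arrays, of which 5 were on slide 1, and the other on 1 array. Median signals of these 8 probes over the 18 arrays lay between 0.94 and 1.12 times the negative-control median, that is, near the level of spots that match no miRNA.

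**Figure D1:**
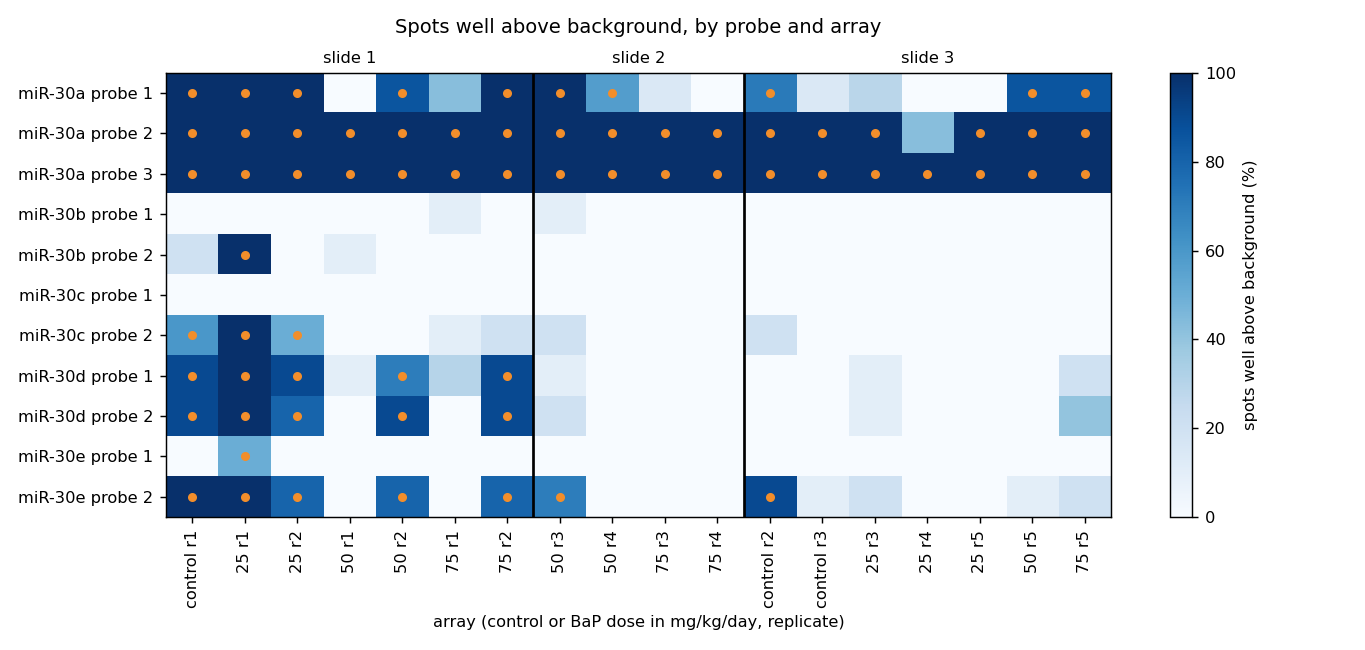
Share of spots well above background (colour, %) for the 11 miR-30 probes (rows) on the 18 arrays (columns, grouped by slide), with an orange dot where the probe was called present. The second and the third of the miR-30a probes were present on 17 and 18 arrays, whereas presence of miR-30c and miR-30d was confined to slide 1 and that of miR-30b to 1 array.

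The scanner software's own call, which combines all spots of a name, was broader. It called miR-30a detected on 18 arrays, miR-30e on 13, miR-30d on 12, miR-30c on 8 and miR-30b on 4. For miR-30b all 4 detected arrays were on slide 1, and for miR-30d 7 of the 12 were. Slide 1 also had the lowest negative-control signal, with a median of 45 scanner units against 72.2 on slide 2 and 65 on slide 3. The part of slide background in these detection calls was not tested. Signal of one probe cannot be set against that of another, so these calls rank detection and not the abundance of the members.

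By group, the software detected miR-30d in 2 of 3 controls and in 3, 4 and 3 of 5 animals at 25, 50 and 75 mg/kg/day. miR-30e was detected in 3 of 3 controls and in 3, 4 and 3 of 5 animals. For miR-30c the counts were 2 of 3, then 2, 2 and 2 of 5. miR-30b was detected in 1 of 3 controls, in 2 and 1 animals at the lower doses and in 0 of 5 at 75 mg/kg/day. Because slide 2 held 4 of the 10 arrays at the higher doses and no control, detection of dim members and dose were partly bound to slide.

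The first question was whether BaP changed the level of the family. For miR-30a, the normalised log2 signals of the 3 controls were 6.82, 6.92 and 6.87. The 5 animals at 25 mg/kg/day measured 7.13, 6.74, 6.97, 6.86 and 6.82. At 50 mg/kg/day the values were 6.78, 6.81, 6.99, 6.94 and 6.89. The 75 mg/kg/day values were 6.86, 6.87, 6.88, 6.87 and 6.89. All groups overlapped, and the highest and the lowest of the 18 values both came from the 25 mg/kg/day group. The group means were 6.87 ± 0.048 (SD, n = 3), 6.90 ± 0.15, 6.88 ± 0.090 and 6.87 ± 0.014 (SD, n = 5 each). The wide spread at 25 mg/kg/day came with replicate 1 (7.13), and the SD of the other 4 animals was 0.093.

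**Figure D2:**
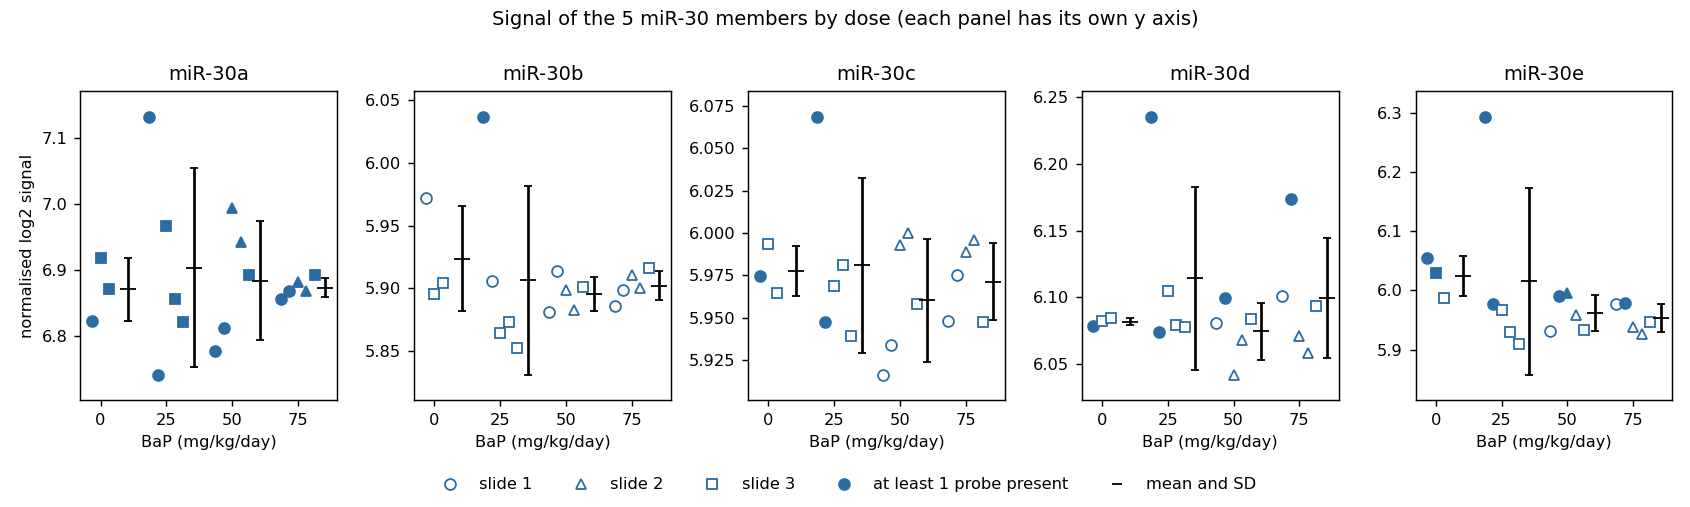
Normalised log2 signal (y axis, own scale in each panel) of the 5 miR-30 members by BaP dose (x axis, mg/kg/day), 1 point per array, shape by slide and filled where at least 1 probe of the member was present, with group mean and SD beside the points. miR-30a lay between 6.74 and 7.13 with overlapping groups, and 25 mg/kg/day replicate 1 was the highest point in all 5 panels.

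No miR-30 member passed the threshold at any dose. With slide as a block in limma, the log2 change of miR-30a against control was 0.035 ± 0.068 (SE) at 25 mg/kg/day, with an FDR-adjusted P of 0.829. It was -0.0084 ± 0.075 at 50 mg/kg/day (FDR-adjusted P = 0.939) and -0.019 ± 0.075 at 75 mg/kg/day (FDR-adjusted P = 0.967). The slope per 25 mg/kg/day over all 4 groups was -0.011 ± 0.023 (FDR-adjusted P = 0.822). Of the 69 names tested, the same fit called 0% at 25 mg/kg/day, 2.9% at 50, 5.8% at 75 mg/kg/day and 10.1% in the trend. At an unadjusted P under 0.05 the limma fit called 7 names (10.1%) at 25 mg/kg/day, 11 (15.9%) at 50 mg/kg/day, 18 (26.1%) at 75 mg/kg/day and 16 (23.2%) in the trend, and miR-30a was in none of those counts. In the same fit miR-34a, a p53-induced miRNA, rose by 2.07 on the log2 scale at 75 mg/kg/day (FDR-adjusted P = 5.4e-07).

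The 95% intervals bound how large a miR-30a change these arrays could have missed. As a ratio to control, the interval ran from 0.926 to 1.13 at 25 mg/kg/day, from 0.891 to 1.11 at 50 mg/kg/day and from 0.884 to 1.10 at 75 mg/kg/day. These ratios include the array's background, which was not subtracted, so that they understate changes in the RNA. With the background-subtracted total gene signal, which sums a name's spots and probes, the intervals ran from 0.781 to 1.14, from 0.735 to 1.11 and from 0.745 to 1.13. The widest of these sets came from the scanner's processed signal, also background subtracted, with intervals from 0.606 to 1.32, from 0.715 to 1.67 and from 0.714 to 1.67. In bulk liver a lower level per cell and fewer expressing cells cannot be told apart.

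**Figure D3:**
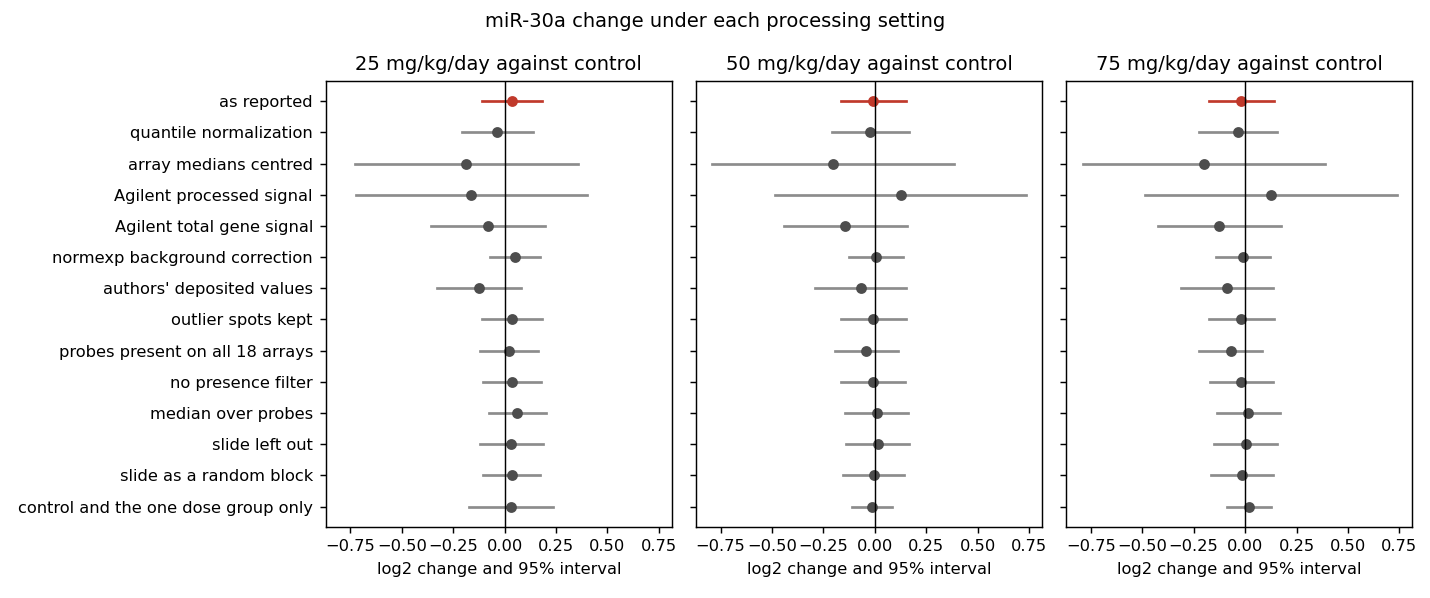
Log2 change of miR-30a against control (x axis) by dose (1 panel for each BaP group), with 95% intervals, for the values as reported (red) and for each other processing setting (grey, 1 row each). Every interval drawn includes 0, and the estimates scatter on both sides of it.

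Within slides the differences were small and of both signs. On slide 1, the mean of the animals at 25 mg/kg/day was 0.114 above the control on the log2 scale, and on slide 3 it was 0.013 below. Slide 1 values at 50 mg/kg/day averaged 0.028 below the control and those at 75 mg/kg/day 0.040 above, and on slide 3 both differences were under 0.002 in size. Of the 5 animals at 25 mg/kg/day, 2 lay above every control of their own slide and 3 below. At 50 mg/kg/day 0 of 3 animals lay above and 2 below, and at 75 mg/kg/day 2 of 3 lay above and 0 below. The direction therefore differed between animals of a dose and between doses.

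The 3 probes of miR-30a gave small changes of both signs. Their log2 changes at 25 mg/kg/day were 0.021, 0.062 and 0.021, in the order of probes present on 10, 17 and 18 arrays. At 75 mg/kg/day they were -0.0023, 0.016 and -0.070, each with an SE between 0.065 and 0.085. The widest gap between probes at 75 mg/kg/day was 0.086. The probes were read on the same arrays, so the SE of a single probe does not measure the error of this gap. A probe near background can show little change, so the one present on 10 arrays adds little here. The probe present on 18 arrays had a slope of -0.029 ± 0.022 (SE) per 25 mg/kg/day, which did not pass the threshold (FDR-adjusted P = 0.428 in limma over the 42 names with such probes).

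The 4 dim members gave no call when every probe was tested without a filter on presence. Over 4 members and 4 contrasts, the lowest unadjusted P in limma was 0.061 and the lowest FDR-adjusted P over 576 names was 0.452. After adjustment this fit called few of the 576 names: 0, 1 and 9 at the rising doses, and 8 for the slope. The absence of a call among 4 names is therefore not particular to the family. Without adjustment, P lay under 0.05 for 59, 53 and 77 names at the rising doses, and for 66 by the slope. In the authors' deposited values the lowest of the 16 FDR-adjusted P values was 0.436. miR-30b lay between 5.85 and 6.04 on the normalised log2 scale over the 18 arrays (median 5.90), miR-30c between 5.92 and 6.07 (median 5.97), miR-30d between 6.04 and 6.24 (median 6.08) and miR-30e between 5.91 and 6.29 (median 5.97). No fold change is given for these members, because none of their probes was kept by the filter on presence. The miR-30e probe present on 7 arrays was present in 2 of 3 controls and in 2, 2 and 1 of 5 animals at the 3 doses. All 3 controls for miR-30e (5.99 to 6.06) lay above the 5 animals of the highest dose (5.93 to 5.98). The lowest dose (5.91 to 6.29) and the middle dose (5.93 to 6.00) overlapped the controls. On slide 3 both controls lay above every dosed animal, and on slide 1 the control exceeded all but 25 mg/kg/day replicate 1. These values lie near background, and this order was not tested apart from the fit above.

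The second question was whether members that share a seed varied together between animals. After the slide means were removed, all 10 pairs of members correlated positively over the 18 arrays, with Pearson r from 0.57 to 0.91 (median 0.81). By permutation within slides, 7 of 10 pairs passed after Benjamini-Hochberg adjustment over the pairs. The closest pair was miR-30c and miR-30e (r = 0.91, permutation P = 6e-04, adjusted P = 0.0065), followed by miR-30a and miR-30e (r = 0.88, permutation P = 0.0031, adjusted P = 0.0103). Spearman's rho was lower, from 0.27 to 0.74 (median 0.58), and 5 of 10 pairs passed. For miR-30c and miR-30e rho was 0.65 (permutation P = 0.0092, adjusted P = 0.0231), and for miR-30a and miR-30e 0.69 (permutation P = 0.0039, adjusted P = 0.0202). Pairs without miR-30a joined members whose probes had median signals of 0.94 to 1.12 times the negative-control median. Their correlations are therefore of signal near background.

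By Pearson r this agreement rested on 1 array. 25 mg/kg/day replicate 1 held the highest value of all 18 arrays for each of the 5 members: 7.13 for miR-30a, 6.04 for miR-30b, 6.07 for miR-30c, 6.24 for miR-30d and 6.29 for miR-30e. After removal of slide means this array was the highest for 11 of the 69 names tested (15.9%) and for 63 of all 576 names (10.9%), and it was also the array with the most names detected. Control replicate 1 was the highest for more of the 69 names, 17. Without 25 mg/kg/day replicate 1, r ranged from -0.17 to 0.66 (median 0.38) and 0 of 10 pairs passed, by r or by rank. By rank, 0 of 10 pairs also passed without 50 mg/kg/day replicate 1 and without 25 mg/kg/day replicate 5, so those calls were ended by any 1 of 3 arrays. The lowest adjusted permutation P by r without 25 mg/kg/day replicate 1 was 0.103, for miR-30c and miR-30e (r = 0.66, rho = 0.56). In that set miR-30b and miR-30d correlated at -0.17. The part of the higher detection on 25 mg/kg/day replicate 1 in the agreement was not tested further.

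**Figure D4:**
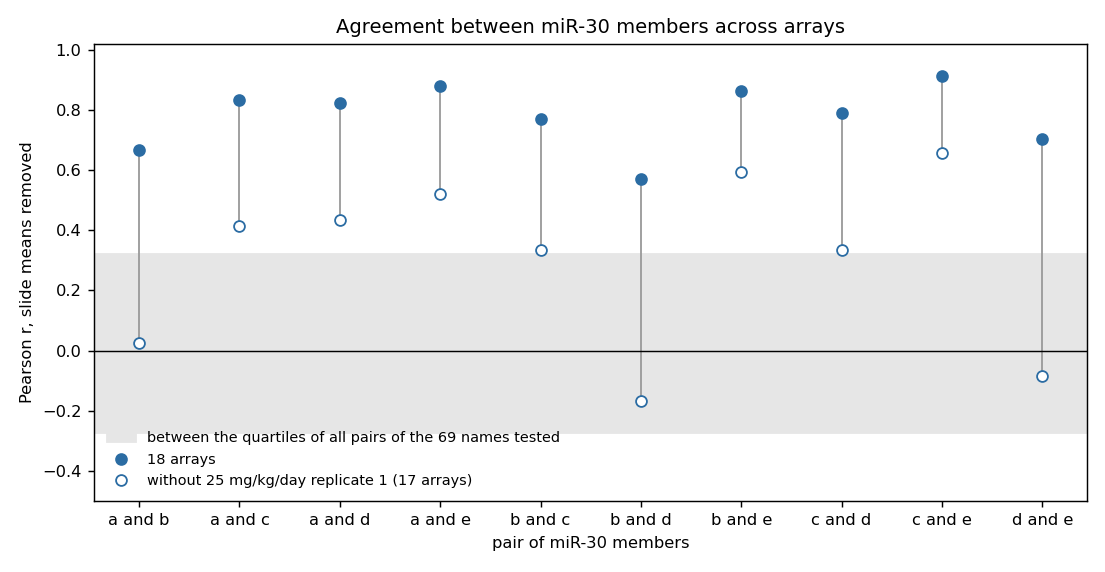
Pearson r (y axis, slide means removed) for the 10 pairs of miR-30 members (x axis) over 18 arrays (filled) and without 25 mg/kg/day replicate 1 (open), with the range between the quartiles of r over all pairs of the 69 names tested in grey. All filled points lie above 0.5, and the median falls from 0.81 to 0.38 when the 1 array is left out.

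With the 2 arrays farthest from the median of the first member left out, r lay between 0.11 (miR-30a and miR-30b) and 0.63 (miR-30b and miR-30e). In each pair 25 mg/kg/day replicate 1 was among the 2. Within slide 1, which held that array, r ranged from 0.63 to 0.96. By an exact permutation test with adjustment over the pairs, miR-30b and miR-30e passed there (adjusted P = 0.012). So did miR-30a and miR-30d (adjusted P = 0.018), and no other pair. Without that array the lowest adjusted P of this test on slide 1 was 0.083 (miR-30b and miR-30e). Within slide 3 r ranged from -0.017 to 0.83, and 0 of 10 pairs passed by the same test. The pair with the highest r on slide 3 was miR-30a and miR-30d (r = 0.83, exact permutation P = 0.028, adjusted P = 0.278, n = 7 arrays). Slide 2 held 4 arrays, below the minimum set for a correlation across arrays.

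As a reference, all 2346 pairs of the 69 names tested had a median r of 0.04, with quartiles of -0.27 and 0.32. The 28 pairs of the let-7 family, another group of miRNAs with a common seed, had a median r of 0.61, and 0.65 without 25 mg/kg/day replicate 1. The 3 pairs of the miR-29 family had 0.65 and 0.63. The single pair of the miR-26 family had -0.03 and 0.47. These are descriptions only, since the families differ in signal over background. The median r of miR-30 was above those of let-7 and miR-29 with this array and below them without it.

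The names outside the family whose pattern was most like a member's were compared with and without that array. Over 18 arrays, miR-194, a miRNA enriched in liver and intestine, and miR-26a were among the 3 most alike for miR-30a (r = 0.85 and 0.80), followed by miR-25 (0.72). miR-26a was the most alike for miR-30b (0.83), miR-30c (0.89) and miR-30e (0.94), and miR-194 for miR-30d (0.83). The closest names for miR-30c also included miR-125b-5p (0.86) and miR-16 (0.77). Without 25 mg/kg/day replicate 1, the 3 names most like miR-30a were miR-451 (0.74), miR-144 (0.56) and miR-106b (0.55), so that 0 of its 3 names were kept. miR-30c kept 2 of 3 (miR-125b-5p at 0.80 and miR-26a at 0.54) and miR-30e kept 1 (miR-26a at 0.69), whereas miR-30b and miR-30d kept 0. miR-451 and miR-144 are made together in red blood cell precursors. Of the 9 blood miRNAs listed as markers 4 were tested, and the summed total gene signal of the 9 ranged from 555 to 1496 scanner units in controls, from 135 to 1577 at 25 mg/kg/day, from 572 to 1116 at 50 mg/kg/day and from 236 to 1349 at 75 mg/kg/day. The other 5 (miR-486, miR-142-3p, miR-142-5p, miR-150 and miR-155) were not kept. Blood content and the miR-30a pattern were not tested against each other.

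The background-subtracted signal of miR-30a followed overall detection on the array, which is read from the same array's intensities. Total gene signal of miR-30a ran from 27.7 scanner units (25 mg/kg/day replicate 4) to 191.8 (25 mg/kg/day replicate 1), with a median of 96.8. The 3 lowest values, 27.7, 33.9 and 39.2, belonged to the 3 arrays with the fewest names detected. With slide means removed, the log2 of this signal and the number of names detected correlated with r = 0.91 and rho = 0.93 (n = 18), each with a permutation P of 1e-05, the smallest that the shuffles can give. A positive relation was therefore likely for any detected name, and the P value is no evidence about miR-30a in particular. No other relation of this kind was computed. Total gene signal of miR-122 was also low on 25 mg/kg/day replicates 4 and 5 and 50 mg/kg/day replicate 1. It was 9425, 11737 and 7964 scanner units there, against a median of 22272. For miR-30a the correlation was 0.89 without the 2 arrays farthest from the median (25 mg/kg/day replicate 1 and 50 mg/kg/day replicate 1). It was 0.94 within slide 1 and 0.97 within slide 3. After normalisation, in contrast, miR-30a on the 3 arrays with the fewest names detected measured 6.86, 6.82 and 6.78, within the range of the rest.

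**Figure D5:**
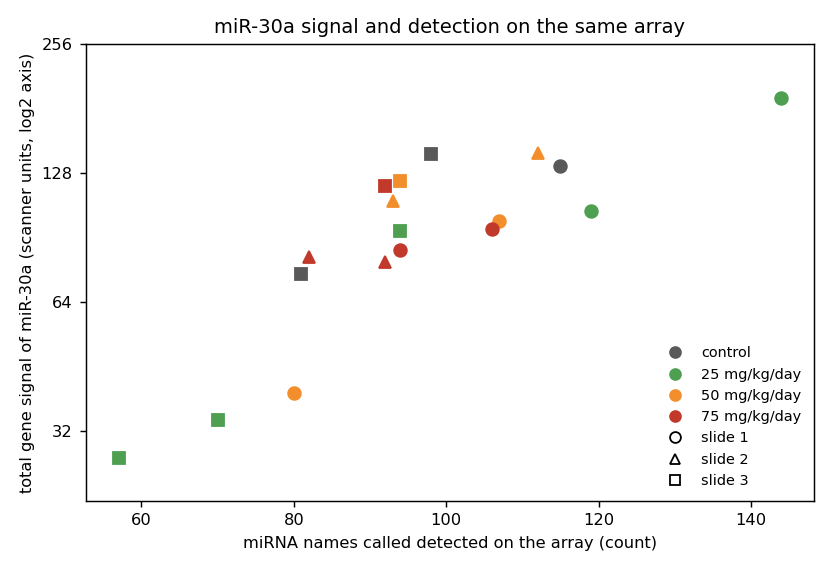
Total gene signal of miR-30a (y axis, scanner units, background subtracted, log2 axis) against the number of miRNA names called detected (x axis) on each of the 18 arrays, coloured by dose and shaped by slide. The signal runs from 27.7 to 191.8 and rises with the number of names detected within slides 1 and 3, while the doses are mixed along it.

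None of the passenger strands was kept either. Of miR-30a*, miR-30b*, miR-30c-1*, miR-30c-2* and miR-30e*, 0 of 5 names passed the filter on presence. miR-30a* was present on 2 arrays and miR-30e* on 3, all on slide 1, miR-30c-2* on 1 array and miR-30c-1* on 0. The scanner software's broader call detected miR-30a* on 4 arrays, miR-30e* on 5, miR-30c-2* on 7 and miR-30c-1* on 0. miR-384-5p, which shares the family seed and is known mainly from brain, was present on 0 arrays by either of its probes.

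miR-30b* stood apart on a single array. All 4 of its probes were present on 50 mg/kg/day replicate 3, with 100% of their spots well above background and signals 1.42 to 1.53 times the negative-control median. On the other 17 arrays 0% of the spots of these probes were well above background. The normalised log2 signal was 6.45 on that array, against 5.76, 5.88, 5.82 and 5.85 on the other animals of the dose. Its total gene signal was 48.6 scanner units there and 0.1, the software's fill value, on the others. The guide strand miR-30b was not detected on that array.

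On the same array 5 other names were present that were present on no other array. Such names were not particular to it, as 25 mg/kg/day replicate 1 had 12 and 3 further arrays had 1 or 2. The 5 were miR-1, miR-133b, miR-378*, miR-669a and miR-693-5p, and all probes were present for miR-669a and miR-693-5p. With miR-30b*, this array held 3 single-array names with every probe present. There was 1 such name on 75 mg/kg/day replicate 3, and 0 of the 12 on 25 mg/kg/day replicate 1 were of this kind. miR-1 and miR-133b are muscle miRNAs. Of the 5 muscle miRNAs listed as markers, 3 (miR-1, miR-133b and miR-133a) had a total gene signal above the fill value on this array, of 44.2, 17.4 and 6.51 scanner units. miR-206 and miR-208a were present on no array. The summed signal of the 5 was 68.2 on this array and 0.5, all at the fill value, on each of the other 17. The part of other tissue in the miR-30b* signal was not tested.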

How the data were processed

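Total RNA from liver was hybridised to 1-colour Agilent mouse miRNA arrays and read with Agilent Feature Extraction 10.7.3.1 (processing notes of the submitters). The deposited spot intensity values were neither normalised nor background subtracted in the column used (median signal, in scanner units), and the presence and outlier flags are the scanner's. The authors also deposited a table of log2 values per name, made by cyclic lowess and a median over replicate spots; its medians of 5.74 to 5.76 and its correlation of 0.990 to 0.998 with the log2 median signal show the scale. The log2 median signal was normalised here by cyclic loess over the 11540 non-control spots, outlier spots were removed, and spots were summarised by their median for each probe, then kept probes by their mean for each name. Values for the 4 dim members use every probe.

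limma 3.58.1 (R 4.3.3) was fitted to 69 names (112 probes) on all 18 arrays with slide as a block, and two-sided P values received Benjamini-Hochberg adjustment over these names with a threshold of 0.05. limma was checked on simulated data for 75 mg/kg/day against control over 69 names. It called 8 of 10 names changed by 0.3 on the log2 scale, 9 of 10 changed by 0.6, and 1 of 49 unchanged ones. This was a single draw with noise independent between names, and it held a larger share of changed names than was called in the data. It therefore does not give the power to call a change of miR-30a. Correlations used 100000 shuffles of 1 member within slides (two-sided; scipy and numpy in Python).

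Groups came from the exposure labels, which give the lowest dose as 25 mg/kg where the series' design text has 24. Replicate numbers follow accession order and only name arrays. The treatment label speaks of 5 vehicle animals, and control arrays were available for 3. The methods of the study state that a quality check eliminated arrays, and they do not give the groups of these. Animals were separate, and the number of arrays limits the precision. The family and the lists were proposed with earlier results of these data known, although membership goes by name alone. Names described are the 5 members, their passenger strands, miR-384-5p, the 3 names most like each member, and the listed markers. Names are those of the array design, and miR-30a, miR-30c and miR-30e were matched to the RefSeq 5p sequences. Alternatives tried were other normalizations, background corrections, filters, probe summaries, slide terms and sample sets, the deposited table, and each array left out in turn.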

Additional observations from a re-analysis of the deposited data

Results flagged for a closer look

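In groups of 5 animals, a single array was set against the rest by Dixon's ratio, the gap to the nearest animal divided by the range of the group, for 11 names (members, passenger strands and miR-384-5p) at 3 doses. In 5 of 33 groups the ratio passed the 95% critical value of 0.71, where chance alone gives about 1 in 20 for a single group. Slide means were left in these values and the names share arrays, so the 33 groups are not independent. Of the 5, 3 concerned 25 mg/kg/day replicate 1, which was the highest animal of its group. The ratio was 0.710 for miR-30b, just at the critical value (6.04 against 5.91 for the nearest animal). It was 0.810 for miR-30d (6.24 against 6.10) and 0.824 for miR-30e (6.29 against 5.98). For miR-30b* at 50 mg/kg/day replicate 3 it was 0.824 (6.45 against 5.88). For miR-30c-1* at 50 mg/kg/day replicate 1 it was 0.780, where the array was the lowest (5.72 against 5.77) and the name was present on 0 arrays.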

How the results depend on the processing

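The number of miR-30 members past the threshold was 0 in 33 settings at each dose and in 32 for the trend, arrays left out in turn included, and limma gave 0 members at an unadjusted P under 0.05 as well. miR-30a was the only member tested, except in the 2 settings over all names, which tested all 5. The sign of the miR-30a change was not stable. At 25 mg/kg/day it was -0.035 with quantile normalization, -0.19 with array medians centred, -0.16 with the processed signal, -0.081 with the total gene signal and -0.13 with the authors' values, over the same or all names (the latter chosen after seeing the data). With array medians centred, the median change of all 69 names moved to -0.23, -0.25 and -0.25 at the 3 doses, and miR-30a lay 0.040, 0.045 and 0.049 above it. At 50 mg/kg/day it was 0.13 with the processed signal, 0.0056 with normexp, 0.0079 with the median over probes and 0.013 without slide. At 75 mg/kg/day it was 0.13 with the processed signal, 0.016 with the median over probes, 0.0029 without slide and 0.019 with control and that dose only. The slope was 0.068 with the processed signal. With each array left out in turn, the change ranged from -0.031 to 0.075 at 25, from -0.034 to 0.015 at 50 and from -0.045 to 0.0032 at 75 mg/kg/day, and the slope from -0.020 to 0.0040. FDR-adjusted P values over all settings lay between 0.322 and 0.997. The cause of the sign changes was not tested.

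The number of agreeing pairs of members, 7 of 10 by r, was 2 with the total gene signal, where 14 of 18 miR-30b values lay at the floor, and between 8 and 10 with the other planned settings. By rank, 5 of 10 pairs became 9 with quantile normalization, 10 with array medians centred and 3 with the total gene signal. Leaving out arrays in turn (added after seeing the data) gave 0 to 7 pairs by r, with 0 only without 25 mg/kg/day replicate 1. By rank it gave 0 to 6, with 0 without 25 mg/kg/day replicate 1, 50 mg/kg/day replicate 1 or 25 mg/kg/day replicate 5, 2 without 25 mg/kg/day replicate 2 and 3 without 75 mg/kg/day replicate 1. The gap between the 3 miR-30a probes at 75 mg/kg/day stayed between 0.036 and 0.12. No paired analysis was possible because the labels give no replicate numbers. Signal near background limits 4 of the 5 members and the dimmest of the 3 miR-30a probes.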
